A study of Homo sapiens with 60 samples.

Results

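The 39 genes described here act in G2 phase and mitosis. They were chosen by symbol from a list of such genes, with no measured value in the rule but with earlier results of these data known. Each symbol mapped to 1 Ensembl identifier. They are 39 of the 60675 genes in the deposited table, and all 39 were among the 17569 genes expressed highly enough to be tested. The RNA came from SW1783, an established human astrocytoma cell line, cultured for 24 h with a plant extract, an inhibitor or vehicle. Bulk mRNA libraries were made from 20 groups of 3 libraries each.

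Wortmannin, an inhibitor of phosphoinositide 3-kinases, was given at 10 µM. Hot water extracts of 6 herbal drugs were each given at a low, a medium and a high dose. Zingiberis Rhizoma Recens (fresh ginger), Zingiberis Rhizoma (dried ginger), Pinelliae Tuber (Pinellia) and Zizyphi Fructus (jujube) were given at 20, 100 and 500 µg/mL. Scutellariae Radix (Scutellaria) was given at 16.4, 82 and 410 µg/mL, and Coptidis Rhizoma (Coptis) at 0.8, 4 and 20 µg/mL. Per the series' design, the high dose was 500 µg/mL, or the IC20 of the extract where that was lower. The doses of Scutellaria and Coptis are therefore not matched to those of the other extracts by mass. The vehicle was DMSO, given as 0.1% in the sample labels and as 2% in the design text. The labels do not say whether replicates came from separate cultures, so the p-values measure the spread between these libraries, which may be technical.

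Cells enter mitosis when cyclin B bound to the kinase CDK1 is activated by CDC25 phosphatases, and they leave it when the anaphase-promoting complex marks cyclin B and securin for destruction. Between these steps a bipolar spindle forms, kinetochores attach chromosomes to it, and the spindle checkpoint holds anaphase back until every chromosome is attached. Most of the genes involved are transcribed in waves late in the cycle, under the MuvB complex with B-MYB and FOXM1, and are repressed by the related DREAM complex in resting cells. In a bulk measurement, fewer cells in G2 and mitosis cannot be told apart from less of these RNAs in each cell.

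The promoters of such genes commonly carry a cell cycle genes homology region (CHR), which MuvB complexes bind, and CCAAT boxes bound by NF-Y. The windows below are shown because they hold these letters in 5 members whose responses are described further on. They run from 150 bases before to 20 bases after an annotated start, 5′ to 3′ on the gene's strand, and come from RefSeq on GRCh38.p14. Capitals mark the CHR letters (TTTGAA or TTCGAA) and CCAAT, read on either strand, so that TTCAAA and ATTGG are also capitals. CCNB2 encodes cyclin B2 (chr15:59104996-59105165, plus strand), PLK1 the mitotic kinase Polo-like kinase 1 (chr16:23678739-23678908, plus strand) and CDC20 the activator of the anaphase-promoting complex (chr1:43358831-43359000, plus strand). SPC25 encodes a subunit of the NDC80 complex (chr2:168890411-168890580, minus strand) and ASPM a spindle pole protein (chr1:197146650-197146819, minus strand).
CCNB2: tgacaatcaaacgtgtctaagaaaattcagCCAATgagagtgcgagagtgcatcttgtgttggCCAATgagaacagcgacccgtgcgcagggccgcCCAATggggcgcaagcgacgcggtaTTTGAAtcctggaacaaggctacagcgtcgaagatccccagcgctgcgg
PLK1: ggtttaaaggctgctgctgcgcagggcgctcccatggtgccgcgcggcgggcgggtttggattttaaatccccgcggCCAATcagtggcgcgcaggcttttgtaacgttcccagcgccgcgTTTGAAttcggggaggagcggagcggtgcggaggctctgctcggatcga
CDC20: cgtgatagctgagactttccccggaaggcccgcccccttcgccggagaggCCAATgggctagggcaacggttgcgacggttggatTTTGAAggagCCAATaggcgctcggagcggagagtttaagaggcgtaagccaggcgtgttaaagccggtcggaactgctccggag
SPC25: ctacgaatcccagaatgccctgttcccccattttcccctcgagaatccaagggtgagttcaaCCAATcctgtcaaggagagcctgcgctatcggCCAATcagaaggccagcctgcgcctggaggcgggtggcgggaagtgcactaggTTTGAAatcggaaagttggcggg
ASPM: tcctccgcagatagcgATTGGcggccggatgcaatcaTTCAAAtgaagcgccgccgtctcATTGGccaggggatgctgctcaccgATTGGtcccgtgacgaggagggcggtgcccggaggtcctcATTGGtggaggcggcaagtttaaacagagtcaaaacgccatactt

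The CHR letters were found in 29 of the 42 windows annotated for members, or 69.0% (95% Wilson interval 54.0% to 80.9%), against 16.4% of all 35116 windows of the same 300 bases. CCAAT was found in 32 of 42 (76.2%, 61.5% to 86.5%), against 34.6% of all windows. The E2F-like letters TTTGGCG and TTTCCCG were found in 3 of 42 (7.1%, 2.5% to 19%), against 6.1% of all windows. Windows were at hand for 32 of the 39 members. Some of these have more than 1 window, so the intervals, which take windows as independent, may be too narrow. Counted by gene, the CHR letters were in 26 of 32 members (81.2%), against 19.5% of all genes with windows. CCAAT was in 27 of 32 (84.4%), against 39.7%, and the E2F-like letters were in 3 of 32 (9.4%), against 7.3%. None was at hand for BIRC5, TTK, TPX2, UBE2C, BUB3, AURKA and FOXM1. AURKB, CCNA2, CCNB1, CENPE, NEK2 and PTTG1 had windows without the CHR letters. CHR and CCAAT letters overlapped in 1 place.

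Library totals were between 20.2 M and 32.8 M counts (M, mega-), with a median of 25.4 M counts. Levels are given as CPM, the count scaled to a common library total with factors from the trimmed mean of M values (TMM). For marker genes alone, CPM was taken on library totals without TMM factors. On that scale VIM (3790 to 6870 CPM) and CD44 (1990 to 3030 CPM) were high in every library. The astroglial markers GFAP, S100B, SOX2, AQP4 and ALDH1L1 stayed at or below 0.346 CPM. NES, the other glial marker examined, had 1.33 to 11.9 CPM. The transcripts of this line thus show few of the defining markers of astrocytes. Replicate pairs were never identical.

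In vehicle cells, on a scale of CPM per kilobase of exon, the most abundant members were CDC20 (98), ANLN (77), TOP2A (72.1) and CCNB1 (69.8). The least abundant were CDC25C (4.29) and SPC25 (4.71). The members that encode subunits of the NDC80 complex were all in the lower part of this order, with NUF2 at 7.28 and NDC80 at 9.16 beside SPC25.

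Against vehicle, all or most members were called lower with wortmannin, with high-dose Scutellaria and with medium- and high-dose Coptis. Smaller numbers were called lower with both gingers at the high dose, and 20 were called higher with high-dose jujube. A member was called where edgeR's quasi-likelihood test gave a Benjamini-Hochberg adjusted p under 0.05 over all tested genes. With wortmannin all 39 were called lower, where 19.2% of all tested genes were, and their median log2 fold change was -0.38 (all tested genes 0.02). With high-dose Scutellaria 37 were called lower, against 28.5% of all genes, with a median of -0.69. With high-dose Coptis 34 were called lower, against 37.9%, and 3 higher, against 37.2%, with a median of -0.90. Those 3 became 1 with library totals and 5 without high-dose Coptis replicate 3.

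With medium-dose Coptis 36 were called lower, against 20.2% of all genes, with a median of -0.35. High-dose fresh ginger had 20 called lower, against 10.2%, with a median of -0.11. High-dose dried ginger had 13 called lower, against 9.2%, with a median of -0.08. High-dose jujube had 20 called higher, against 8.18%, with a median of 0.12. High-dose Pinellia had 1 called lower, against 8.73%, and 5 higher, against 9.3%, so its share of members called higher was near that of all genes.

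Scaling by library totals in place of TMM factors moved the balance of called genes over the whole table. The share of them that were lower became 80.5% with medium-dose Coptis (49.1% with TMM), 40.8% with high-dose dried ginger (54.2%), 35.3% with high-dose jujube (52.7%) and 70.2% with low-dose fresh ginger (55.1%). It became 70.6% for high against low dose of Coptis (51.3%), 36.9% for fresh ginger (51%), 35.2% for dried ginger (54%) and 37.1% for jujube (51.5%). The median of all genes moved by over 0.1 on the log2 scale with Coptis alone, to -0.13 at the medium dose (0.01 with TMM) and to -0.35 at the high dose (-0.03 with TMM). The member medians there became -0.48 and -1.22.

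**Figure D1:**
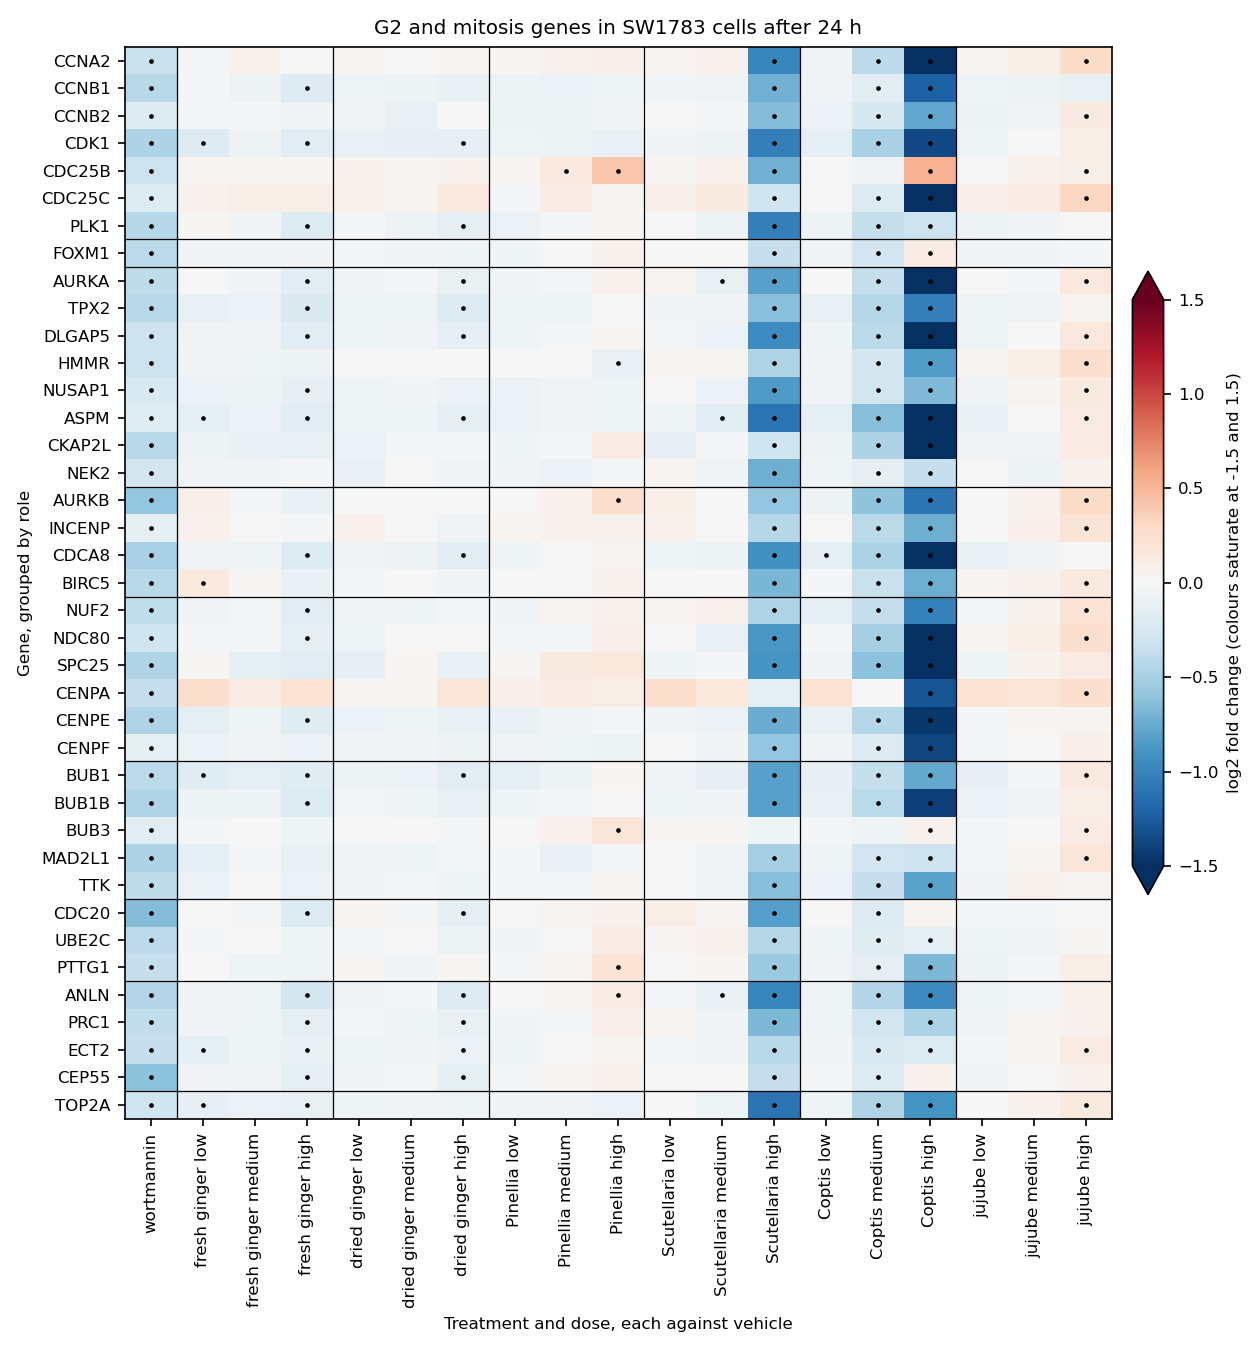
Log2 fold change of each of the 39 members (rows, grouped by role) against vehicle for wortmannin and for the low, medium and high dose of each extract (columns). Dots mark called genes and colours saturate at -1.5 and 1.5; the wortmannin, high-dose Scutellaria and medium- and high-dose Coptis columns are mostly blue (lower), and the high-dose jujube column is faintly red (higher).

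Few members were called at the low and medium doses of the other extracts. Low-dose fresh ginger had 5 called lower (CDK1, BUB1, ASPM, ECT2 and TOP2A), against 4.38% of all genes, and 1 higher (BIRC5), against 3.56%. BIRC5, at 0.15 on the log2 scale (adjusted p 0.015), was no longer called without vehicle replicate 2 or fresh ginger low-dose replicate 1 or 3. The 5 became 2 without vehicle replicate 1 and 3 without fresh ginger low-dose replicate 1. Medium-dose Scutellaria had 3 called lower, against 4.72% (ASPM -0.16, AURKA -0.11 and ANLN -0.10 on the log2 scale), and none without vehicle replicate 1. Low-dose Coptis had 1 called lower, against 0.25%: CDCA8, a subunit of the chromosomal passenger complex, at -0.14 (adjusted p 0.015). That call was lost without vehicle replicate 2, vehicle replicate 3, Coptis low-dose replicate 1 or Coptis low-dose replicate 2. Medium-dose Pinellia had 1 called higher, against 0.916%: CDC25B at 0.15, a call that was lost with only the 2 groups fitted.

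None of the 39 was called in 7 other comparisons, by edgeR's quasi-likelihood test or by DESeq2. These were medium-dose fresh ginger (1.5% of all genes called in either direction, 9 members at an unadjusted p under 0.05), medium-dose dried ginger (0.7%, 6 members) and low-dose dried ginger (0.0512%, 4 members). Low-dose Pinellia (0.142%, 7 members), medium-dose jujube (0.364%, 6 members) and low-dose jujube (0.0114%, 5 members) showed the same, and so did low-dose Scutellaria (2.72%, 4 members).

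Of the 7 kinase, cyclin and phosphatase genes of mitotic entry, all 7 were called lower with wortmannin and with Scutellaria, and 6 were called lower and 1 (CDC25B) higher with Coptis. In this and the other groups of members by role, counts lower stand beside 19.2% of all tested genes with wortmannin, 28.5% with Scutellaria and 37.9% with high-dose Coptis, where 37.2% were higher. CCNB1 (cyclin B1, chr5:69167010-69178245) had 133, 134 and 133 CPM with wortmannin, 114, 98.8 and 112 CPM with high-dose Scutellaria and 77.8, 81.7 and 70.6 CPM with high-dose Coptis, against 180, 179 and 177 CPM in vehicle. All 9 treated libraries lay below the vehicle libraries. Its log2 fold changes were -0.42 ± 0.05 (SE, adjusted p 1.6e-10) with wortmannin, -0.72 ± 0.05 (adjusted p 2.6e-19) with Scutellaria and -1.22 ± 0.05 (adjusted p 1.8e-28) with Coptis. CDK1, its kinase partner (chr10:60778331-60794852), had 56.1, 59.8 and 59.4 CPM with wortmannin, 43.3, 34.7 and 40.4 CPM with Scutellaria and 32.4, 32.6 and 29.7 CPM with Coptis, against 80.4, 80.3 and 80.2 CPM in vehicle. Its groups did not overlap either, and it fell by 0.46, 1.02 and 1.35 on the log2 scale with the 3 treatments, each ± 0.05.

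CCNA2, the cyclin of S and G2 phase (chr4:121816444-121823933), showed the steepest fall of the 3 cyclins with Coptis. It had 54.7, 54.5 and 54.9 CPM with wortmannin, 32.9, 33.9 and 37.7 CPM with Scutellaria and 16.4, 15.9 and 15.1 CPM with Coptis, against 71.8, 68.2 and 66.2 CPM in vehicle. Fold changes on the log2 scale were -0.33 ± 0.04 (adjusted p 2.7e-10), -0.98 ± 0.04 (adjusted p 1.7e-28) and -2.12 ± 0.05 (adjusted p 3.4e-41). CCNB2 fell by 0.19, 0.65 and 0.78. CCNA2 shares 254 exon bases with EXOSC9 on the opposite strand, and its deposited count was not a whole number in any of the 60 libraries. The part of EXOSC9 in the CCNA2 values was not tested.

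PLK1 (chr16:23677656-23690367) responded in another order. It had 84.3, 86.9 and 83.1 CPM with wortmannin, 57.7, 60.1 and 51.9 CPM with Scutellaria and 90.8, 102 and 82.5 CPM with Coptis, against 113, 111 and 119 CPM in vehicle. The Scutellaria libraries were the lowest, and the Coptis libraries, though all below vehicle, overlapped those with wortmannin. It fell by 0.43 ± 0.04, 1.02 ± 0.05 and 0.32 ± 0.04 on the log2 scale (adjusted p 7.1e-12, 1.5e-26 and 4.8e-09). The 2 CDC25 phosphatases, which activate CDK1, parted under Coptis. CDC25C had 5.19, 4.74 and 4.98 CPM with high-dose Coptis, against 13.9, 15.1 and 13.9 CPM in vehicle, a log2 fold change of -1.53 ± 0.08 (adjusted p 2.5e-23). It shares 293 exon bases with FAM53C on the opposite strand, whose mean count was 1349.8 against 368.4 for CDC25C, and its own count was not a whole number in 20 of 60 libraries. FAM53C fell by 0.36 with high-dose Coptis and was not called with high-dose jujube (-0.07); its part in the CDC25C values was not tested. CDC25B had 301, 297 and 305 CPM with high-dose Coptis, against 211, 211 and 209 CPM in vehicle, and rose by 0.52 on the log2 scale. With high-dose Scutellaria CDC25B fell to 124, 134 and 123 CPM, a log2 fold change of -0.72.

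FOXM1, the transcription factor of G2 and mitotic genes (chr12:2857681-2877155), was lower with wortmannin and Scutellaria but not with high-dose Coptis. It had 120, 122 and 122 CPM with wortmannin, 122, 132 and 119 CPM with Scutellaria and 169, 178 and 169 CPM with Coptis, against 158, 159 and 159 CPM in vehicle. The Coptis libraries were above vehicle and the other treated libraries below it. On the log2 scale the changes were -0.39 ± 0.03 (adjusted p 9.2e-15), -0.35 ± 0.03 (adjusted p 1.7e-14) and 0.11 ± 0.03 (adjusted p 0.00094), and with library totals in place of TMM factors the last became -0.20 (adjusted p 1.8e-08). With that scaling 70.3% of the called genes of the whole table were lower with high-dose Coptis, where 50.5% were with TMM. FOXM1 shares 781 exon bases with ITFG2 on the opposite strand, and its deposited count was not a whole number in any of the 60 libraries. The part of that neighbour in the FOXM1 values was not tested.

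Genes of spindle assembly and Aurora A fell as a group in the same 3 treatments: all 8 were called lower in each, with median log2 fold changes of -0.32 with wortmannin, -0.77 with Scutellaria and -1.30 with Coptis. AURKA (chr20:56369389-56392337), the centrosomal kinase Aurora A, had 75.4, 78.9 and 77.6 CPM with wortmannin, 57.7, 58.4 and 56.1 CPM with Scutellaria and 19.6, 19.3 and 18.3 CPM with Coptis, against 105, 100 and 96.6 CPM in vehicle. The groups were separate, in that order. The log2 fold changes were -0.38 ± 0.04 (adjusted p 6.8e-12), -0.81 ± 0.04 (adjusted p 5.8e-25) and -2.40 ± 0.05 (adjusted p 5.8e-43).

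ASPM, whose promoter window above carries 4 CCAAT boxes, had 70.3, 70.9 and 72.1 CPM with Scutellaria and 20.2, 22.3 and 19.7 CPM with Coptis, against 159, 151 and 147 CPM in vehicle. It fell by 1.10 ± 0.04 (adjusted p 8.4e-30) and 2.88 ± 0.05 (adjusted p 2.7e-45) on the log2 scale. With wortmannin it had 132, 135 and 135 CPM, a fall of 0.18. TPX2, the activator of Aurora A, fell by 0.42 with wortmannin, 0.63 with Scutellaria and 1.02 with Coptis. NEK2, a kinase of centrosome separation, fell by 0.28, 0.73 and 0.35, so that it was another member whose Coptis change was smaller than its Scutellaria change.

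The chromosomal passenger complex, which corrects faulty attachments, is made of the kinase Aurora B (AURKB), INCENP, CDCA8 and survivin (BIRC5). All 4 members were called lower with each of the 3 treatments, with medians of -0.45, -0.64 and -0.91. AURKB had 21.3, 23.6 and 23.1 CPM with wortmannin, 23.4, 22.4 and 22.2 CPM with Scutellaria and 17.1, 15.8 and 14.9 CPM with Coptis, against 32.2, 34.5 and 34.7 CPM in vehicle. The wortmannin and Scutellaria libraries overlapped each other and lay below vehicle. The log2 fold change was -0.58 in both, and -1.09 with Coptis.

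Kinetochore and centromere members had medians of -0.36 with wortmannin (6 of 6 called lower), -0.67 with Scutellaria (5 of 6) and -1.41 with Coptis (6 of 6). SPC25, part of the NDC80 complex that holds microtubules, was the member with the largest change of any comparison with vehicle. It had 0.791, 1.03 and 1.16 CPM with high-dose Coptis, against 8.35, 8.4 and 9.27 CPM in vehicle, a log2 fold change of -3.12 ± 0.16 (adjusted p 1e-24). NDC80 had 6.64, 6.6 and 5.51 CPM with Coptis, against 33.3, 33.1 and 32.6 CPM in vehicle (-2.40 ± 0.06, adjusted p 5.2e-37). NUF2, another member in that complex, fell by 1.01.

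CENPF, a large kinetochore and nuclear matrix protein (chr1:214603195-214664588), had 220, 234 and 234 CPM with wortmannin, 170, 160 and 171 CPM with Scutellaria and 100, 102 and 91.1 CPM with Coptis, against 254, 256 and 243 CPM in vehicle. Each treated library was below every vehicle library. Fold changes on the log2 scale were -0.13 ± 0.04 (adjusted p 0.0044), the smallest of the 39 with wortmannin, -0.58 ± 0.04 (adjusted p 1.4e-19) and -1.36 ± 0.04 (adjusted p 5.2e-35). CENPA, the centromeric histone, was not called with Scutellaria (-0.13, adjusted p 0.22) and fell by 1.29 with Coptis. It shares 138 exon bases with SLC35F6 on the same strand, and SLC35F6 rose by 0.93 with Scutellaria and 0.41 with Coptis; the part of that neighbour in the CENPA values was not tested.

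Of the 5 spindle checkpoint genes, BUB1, BUB1B, MAD2L1 and TTK fell with all 3 treatments, and BUB3 fell with wortmannin, missed the threshold with Scutellaria and was called higher with Coptis. BUB3 (chr10:123154277-123170467), which recruits the BUB kinases to kinetochores, had 122, 123 and 125 CPM with wortmannin, 136, 128 and 129 CPM with Scutellaria and 149, 143 and 139 CPM with Coptis, against 138, 140 and 134 CPM in vehicle. Wortmannin libraries were below vehicle, Scutellaria libraries overlapped it, and the lowest Coptis library lay between the vehicle libraries. On the log2 scale the changes were -0.16 ± 0.03 (adjusted p 4e-05), -0.07 ± 0.03 (adjusted p 0.056) and 0.07 ± 0.03 (adjusted p 0.041). With Scutellaria BUB3 was called lower with RLE size factors, the replicate block, the exon length trend taken out, DESeq2, or without vehicle replicate 3 or Scutellaria replicate 1 (adjusted p 0.02 to 0.049). The Coptis change was -0.25 with library totals, and its call was lost without Coptis replicate 1 (0.04, adjusted p 0.26) or vehicle replicate 3 (0.05, adjusted p 0.16), without the filter on low counts (0.07, adjusted p 0.18) and with only the 2 groups fitted (0.05, adjusted p 0.16). BUB1 fell by 0.39, 0.81 and 0.77, and BUB1B by 0.45, 0.81 and 1.40.

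The 3 genes of anaphase and mitotic exit had medians of -0.39 with wortmannin, -0.56 with Scutellaria and -0.13 with Coptis. CDC20 (chr1:43358955-43363203) was the member that fell most with wortmannin. It had 128, 125 and 129 CPM with wortmannin, 116, 111 and 111 CPM with Scutellaria and 203, 221 and 194 CPM with Coptis, against 203, 196 and 200 CPM in vehicle. Wortmannin and Scutellaria libraries were far below vehicle, and Coptis libraries overlapped it. Its log2 fold changes were -0.65 ± 0.04 (adjusted p 7.9e-21), -0.83 ± 0.04 (adjusted p 8.4e-27) and 0.04 ± 0.04 (adjusted p 0.27), the last of which was -0.28 with library totals and below 0 without Coptis replicate 2. UBE2C, the ubiquitin-conjugating enzyme of the anaphase-promoting complex, fell by 0.39, 0.43 and 0.13, and PTTG1 (securin) by 0.35, 0.56 and 0.67.

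Among cytokinesis genes the split was by gene as well. ANLN, a scaffold of the contractile ring, had 333, 352 and 342 CPM with wortmannin, 233, 232 and 238 CPM with Scutellaria and 245, 250 and 226 CPM with Coptis, against 471, 463 and 455 CPM in vehicle. All treated libraries were below vehicle, and the log2 fold changes were -0.44, -0.98 and -0.95. CEP55, which brings the abscission machinery to the midbody, had 50, 51.6 and 52.3 CPM with wortmannin, 60, 62.6 and 61.5 CPM with Scutellaria and 83.1, 88.5 and 72.7 CPM with Coptis, against 80.4, 78.8 and 76.4 CPM in vehicle. It fell by 0.61 ± 0.04 with wortmannin (adjusted p 1e-17) and by 0.36 with Scutellaria, while its Coptis libraries overlapped vehicle (0.05, not called).

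TOP2A, the topoisomerase that untangles sister chromatids (chr17:40388516-40417950), was the member that fell most with Scutellaria. It had 375, 378 and 379 CPM with wortmannin, 217, 212 and 216 CPM with Scutellaria and 243, 276 and 225 CPM with Coptis, against 480, 463 and 449 CPM in vehicle. No treated library reached a vehicle library. The log2 fold changes were -0.30 ± 0.04 (adjusted p 5.5e-10), -1.11 ± 0.04 (adjusted p 8.7e-33) and -0.90 ± 0.04 (adjusted p 3e-29).

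Reductions of at least 2-fold were counted for 18 members with high-dose Coptis, against 17.6% of all genes, for 4 with high-dose Scutellaria (TOP2A, ASPM, CDK1 and PLK1), against 5.21%, and for none with wortmannin, against 0.774%. These counts are with TMM factors. With library totals the member median at high-dose Coptis became -1.22 and that of all genes -0.35. CDK1 fell short of 2-fold without Scutellaria replicate 2 (-0.93 on the log2 scale), and PLK1 without Scutellaria replicate 3 (-0.95) or vehicle replicate 3 (-0.99). The spread over members was wide with Coptis, from -3.12 (SPC25) to 0.52 (CDC25B), and narrow with wortmannin, from -0.65 (CDC20) to -0.13 (CENPF). With Scutellaria it ran from -1.11 (TOP2A) to -0.07 (BUB3). The doses of the 2 extracts differ by mass, and the difference between them was not tested.

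**Figure D2:**
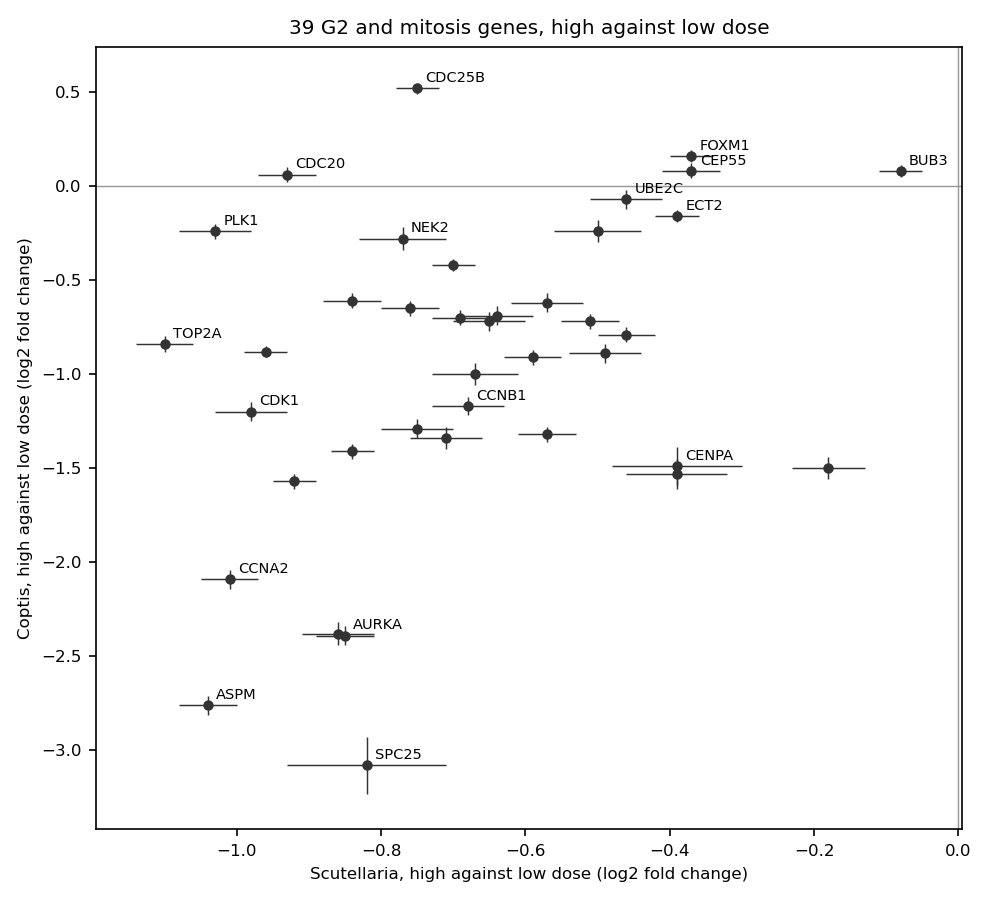
Log2 fold change of the 39 members between the high and the low dose of Coptis (vertical axis) and of Scutellaria (horizontal axis), with standard errors as bars; the 2 axes share no libraries. All 39 lie left of 0 on the Scutellaria axis, whereas FOXM1, BUB3, CEP55, CDC20 and CDC25B lie above 0 on the Coptis axis and SPC25 lies lowest, at -3.08.

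The comparison of high with low dose of 1 extract does not use the vehicle. With Scutellaria all 39 members were called lower at the high dose, against 28.9% of all genes, with a median log2 fold change of -0.69. With Coptis 33 were lower, against 38.9%, and 3 higher (CDC25B, FOXM1 and BUB3), against 36.9%, with a median of -0.84. The 3 became 1 with library totals and 5 with RLE size factors, with DESeq2 or without high-dose Coptis replicate 3. With fresh ginger 12 were lower, against 11.9%, with a median of -0.042 (-0.014 with library totals and -0.067 without high-dose replicate 2), and with dried ginger 5, against 7.13%, with a median of -0.03. The dried ginger count was 2 without its high-dose replicate 3. With Pinellia 13 were higher, against 7.65%, with a median of 0.08, and with jujube 28, against 7.4%, with a median of 0.16.

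The step at which the change appeared differed between Scutellaria and Coptis. CCNA2 averaged 70.3 ± 2.43, 71.7 ± 1.05 and 34.8 ± 2.5 CPM (SD, n = 3) at low, medium and high dose of Scutellaria, so that the fall lay between medium and high dose. It averaged 67.1 ± 0.327, 52.4 ± 2.32 and 15.8 ± 0.678 CPM over the 3 Coptis doses, with a fall at each step. Between high and medium dose of Scutellaria, a comparison added after the data were seen, all 39 members were called lower, against 28.6% of all genes, with a median of -0.66. Between high and medium dose of Coptis, likewise added, 30 were lower, against 36.4%, and 5 higher, against 35%, with a median of -0.52.

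The 5 that rose between medium and high dose of Coptis were CDC25B (0.56), FOXM1 (0.40), CDC20 (0.25), CEP55 (0.25) and BUB3 (0.14, adjusted p 8.6e-05); 3 of them were called higher with library totals. FOXM1 averaged 153 ± 2.17, 130 ± 4.24 and 172 ± 5.21 CPM at low, medium and high dose, and CDC20 198 ± 4.48, 172 ± 2.49 and 206 ± 13.9 CPM. These 2 genes were lowest at the medium dose. SPC25 instead averaged 8.36 ± 1.2, 5.68 ± 0.319 and 0.991 ± 0.184 CPM. At the medium dose of Coptis, mitochondrially encoded transcripts took 11.1 ± 0.499% of the counts, against 5.16 ± 0.184% in vehicle and 6.34 ± 0.454% at its high dose; the part of this in the member values was not tested.

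**Figure D3:**
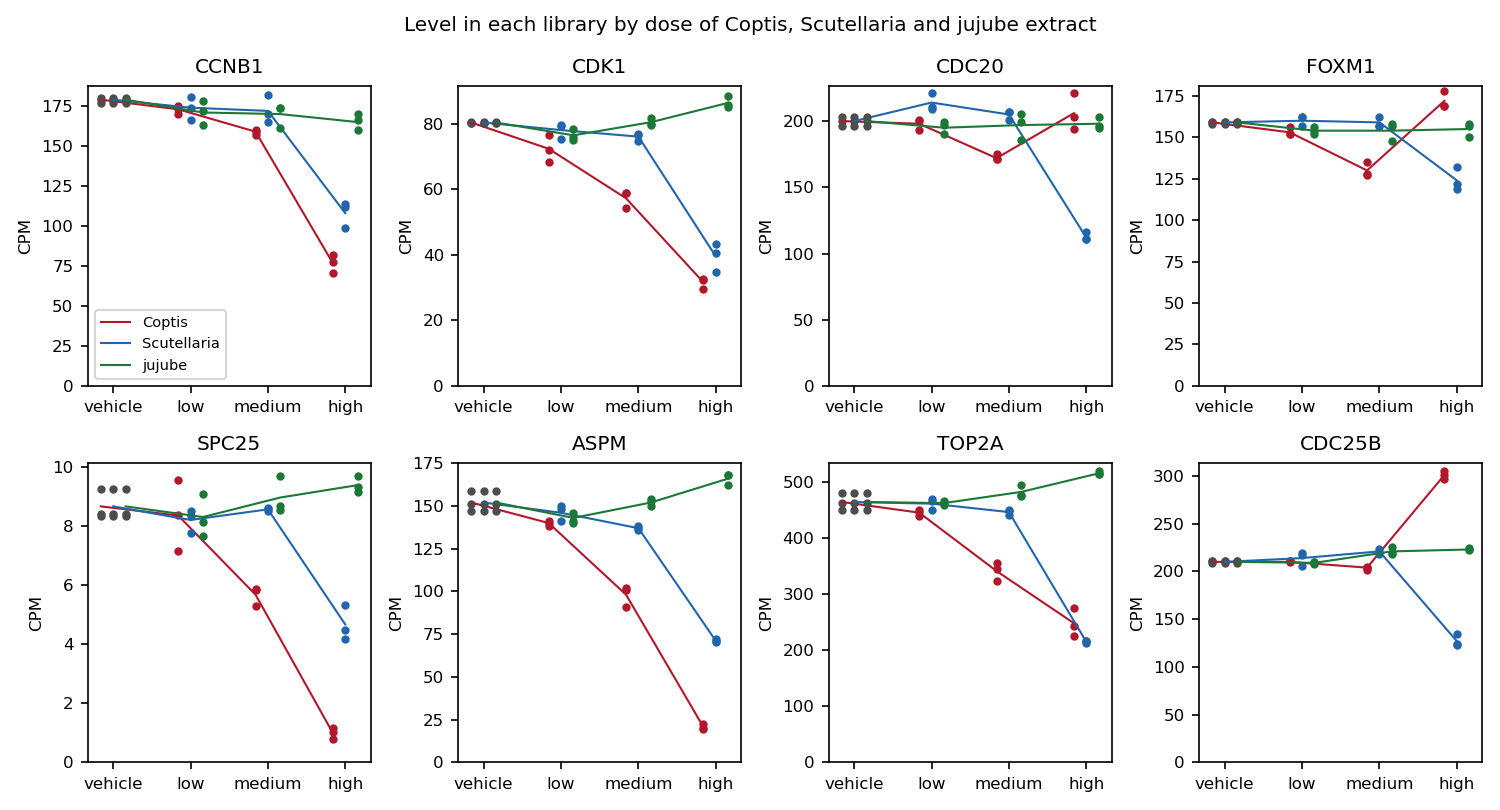
Level of 8 members in CPM (vertical axes from 0) in each vehicle library and in each library at the low, medium and high dose of Coptis (red), Scutellaria (blue) and jujube (green); points are libraries and lines join group means. CCNB1, CDK1, SPC25, ASPM and TOP2A fall with Coptis dose, CDC20, FOXM1 and CDC25B do not, and with Scutellaria all 8 drop between the medium and the high dose.

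High-dose fresh and dried ginger lowered a subset of members by small amounts. ANLN was the most changed in both, with 383, 385 and 385 CPM in fresh ginger and 398, 394 and 408 CPM in dried ginger, against 471, 463 and 455 CPM in vehicle. Its log2 fold changes were -0.27 ± 0.03 (adjusted p 6.2e-12) and -0.21 ± 0.03 (adjusted p 7.3e-09), with no overlap with vehicle. All 4 cytokinesis genes (ANLN, PRC1, ECT2 and CEP55) were called lower in both gingers, against 10.2% of all genes in fresh ginger and 9.2% in dried ginger. Of the kinetochore and centromere members 3 of 6 were called lower in fresh ginger and 0 of 6 in dried ginger, of the checkpoint members 2 and 1 of 5, of the spindle assembly members 5 and 4 of 8, and of the entry members 3 and 2 of 7. The passenger complex and the anaphase members had 1 each called lower in either ginger.

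TPX2 had 202, 192 and 195 CPM in fresh ginger and 206, 196 and 198 CPM in dried ginger, against 233, 227 and 225 CPM in vehicle (-0.22 ± 0.04, adjusted p 7.3e-06, and -0.19 ± 0.04, adjusted p 7.1e-05). CDC20 had 171, 172 and 177 CPM in fresh ginger and 180, 185 and 175 CPM in dried ginger, against 203, 196 and 200 CPM in vehicle (-0.20 ± 0.04, adjusted p 1.9e-05, and -0.15 ± 0.04, adjusted p 0.0015). PLK1 had 101, 96.7 and 98 CPM in fresh ginger and 104, 105 and 99.7 CPM in dried ginger, against 113, 111 and 119 CPM in vehicle (-0.21 ± 0.04, adjusted p 0.00018, and -0.15 ± 0.04, adjusted p 0.0081). None of these groups overlapped with vehicle. BUB1 had 56.8, 54.2 and 57.8 CPM in dried ginger, against 65.1, 61.2 and 63.4 CPM in vehicle (-0.17 ± 0.04, adjusted p 0.0025), and was also called lower in fresh ginger.

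CCNB1 had 158, 156 and 156 CPM in fresh ginger, below vehicle (-0.19 ± 0.05, adjusted p 0.0022), and 171, 166 and 162 CPM in dried ginger (-0.10 ± 0.05, adjusted p 0.13). CDK1 had 72.2, 72.2 and 70.3 CPM in fresh ginger (-0.17, adjusted p 0.0047) and 76.6, 70.9 and 73.7 CPM in dried ginger (-0.12, adjusted p 0.045). AURKA had 92.5, 86.7 and 89.6 CPM in fresh ginger (-0.16, adjusted p 0.00091) and 97.7, 93.7 and 87.1 CPM in dried ginger (-0.11, adjusted p 0.028), overlapping vehicle in the dried ginger libraries. TOP2A had 435, 433 and 420 CPM in fresh ginger (-0.11, adjusted p 0.016) and 448, 433 and 449 CPM in dried ginger (-0.07, adjusted p 0.20). CCNA2, at 69.9, 69 and 65.8 CPM in fresh ginger and 69.2, 72.4 and 69 CPM in dried ginger, overlapped vehicle in both (-0.01, which was above 0 with library totals, and 0.03).

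FOXM1 in fresh ginger (157, 152 and 153 CPM) and dried ginger (154, 149 and 154 CPM) was not called (-0.04 and -0.06). Neither were CENPF (244, 229 and 237 CPM in fresh ginger and 238, 233 and 242 CPM in dried ginger) and BUB3 (130, 135 and 129 CPM and 137, 137 and 129 CPM). The dried ginger count of 13 became 8 without vehicle replicate 1. Its CDK1 call was lost without any 1 of the vehicle replicates or without dried ginger replicate 2 or 3 (adjusted p 0.083 to 0.21), that of AURKA without vehicle replicate 1 or 2 or dried ginger replicate 3 (adjusted p 0.2, 0.061 and 0.25) and that of PLK1 without vehicle replicate 3 or dried ginger replicate 3 (adjusted p 0.064 and 0.05). With library totals the dried ginger calls of CDK1 (adjusted p 0.11) and AURKA (adjusted p 0.076) were lost, and that of AURKA also with only the 2 groups fitted (adjusted p 0.091). CCNB1 in dried ginger was called lower without the filter (adjusted p 0.042), with the exon length trend taken out (adjusted p 0.038) and with only the 2 groups fitted (adjusted p 0.032). The TOP2A call in fresh ginger was lost without vehicle replicate 1 (adjusted p 0.14) or fresh ginger replicate 3 (adjusted p 0.1).

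Set directly against each other at the high dose, dried and fresh ginger showed no called member, where 1.42% of all genes were called in either direction; 5 members had an unadjusted p under 0.05, and DESeq2 called none. The differences ran from -0.02 (FOXM1) to 0.14 (NUF2, adjusted p 0.16), and the 95% intervals of all 39 lay between -0.19 and 0.27. A p that misses the threshold does not show that the extracts act alike. At the medium dose no member was called by either tool (0.0683% of all genes) and none had an unadjusted p under 0.05. At the low dose 1 was called lower in dried ginger, against 0.182%: BIRC5, with 123, 122 and 126 CPM in dried ginger, against 143, 130 and 142 CPM in fresh ginger (-0.16 ± 0.04, adjusted p 0.049). That call was lost without fresh ginger low-dose replicate 1 or 3, or without any 1 of the dried ginger low-dose replicates, and also with RLE size factors, library totals, only the 2 groups or the exon length trend taken out. The slope of a library's log2 levels, relative to the mean of all libraries, on the log10 of exon length averaged -0.017 ± 0.017 in low-dose dried ginger, -0.102 ± 0.045 in low-dose fresh ginger and 0.035 ± 0.033 in vehicle (SD, n = 3 each). With that trend taken out, all genes called for dried against fresh ginger at the low dose were 5 lower and 6 higher, where they were 32 and 17 before. For low-dose fresh ginger against vehicle they were 446 lower and 457 higher, where they were 769 and 626, and the members called were still 5 lower and 1 higher. Slopes also lay away from 0 with wortmannin (0.114 ± 0.015), high-dose Scutellaria (0.086 ± 0.043) and high-dose Coptis (-0.08 ± 0.007). With the trend taken out, the counts of members called against vehicle in these 3 treatments stayed within 1.5 times of those reported.

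**Figure D4:**
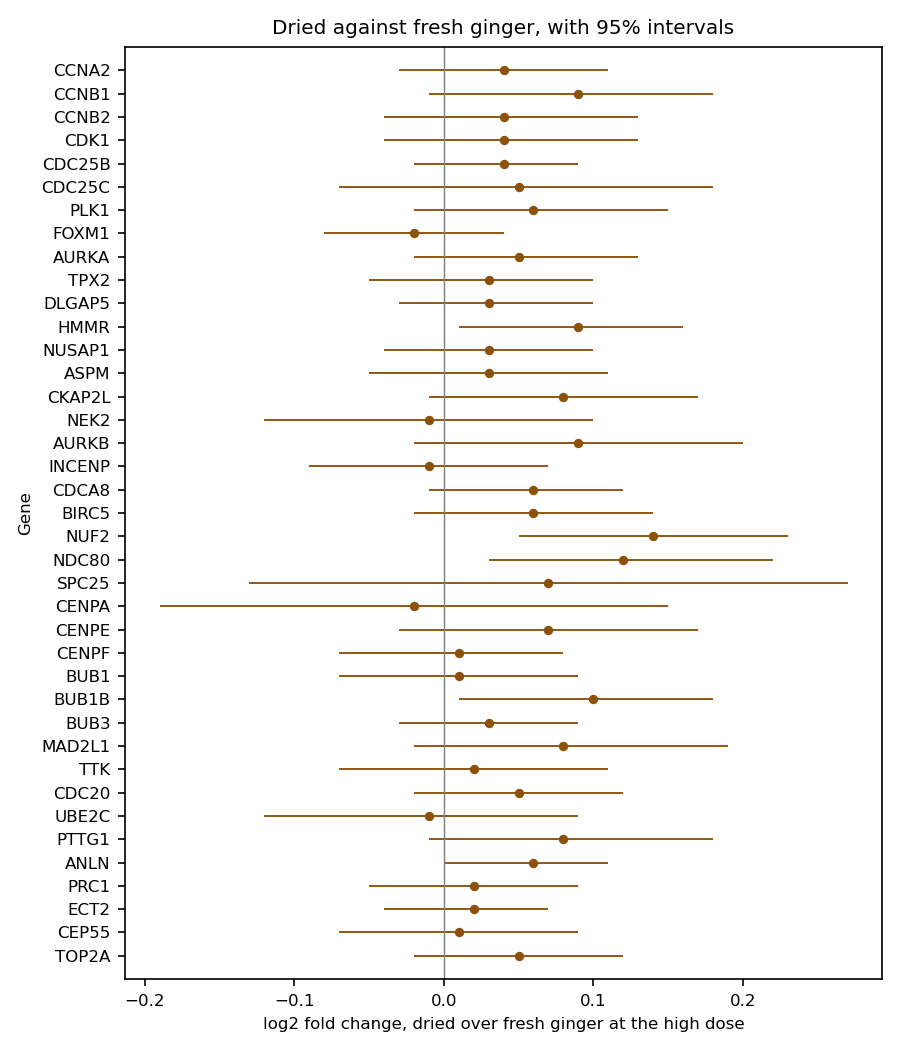
Log2 fold change of each member (rows) for dried over fresh ginger at the high dose, with 95% intervals as bars. All points lie between -0.02 and 0.14 and most intervals cross 0.

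Pinellia changed single members at the high dose. CDC25B had 283, 264 and 285 CPM, against 211, 211 and 209 CPM in vehicle (0.40 ± 0.03, adjusted p 2.5e-17), with no overlap. AURKB had 43.8, 38 and 39.9 CPM, against 32.2, 34.5 and 34.7 CPM in vehicle (0.26 ± 0.05, adjusted p 0.00019), also without overlap. BUB3 had 156, 157 and 153 CPM, against 138, 140 and 134 CPM in vehicle (0.18 ± 0.03, adjusted p 9.1e-06), likewise above every vehicle library. PTTG1 had 147, 123 and 124 CPM, against 121, 114 and 110 CPM in vehicle (0.20 ± 0.05, adjusted p 0.0015), but without Pinellia replicate 1, the highest library, the difference was 0.11 (adjusted p 0.11), and with only the 2 groups fitted the adjusted p was 0.06.

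ANLN was the other member called higher and HMMR, a spindle protein, the member called lower; the HMMR call was lost without vehicle replicate 1 or 2 or Pinellia replicate 1. CCNB1 (181, 176 and 156 CPM), CDK1 (76.5, 75.7 and 70.7 CPM) and CCNA2 (73.2, 73.5 and 71.6 CPM) were not called, at -0.06, -0.11 and 0.08 on the log2 scale. Nor were FOXM1 (166, 166 and 170 CPM), PLK1 (120, 113 and 116 CPM), AURKA (104, 104 and 108 CPM) and CDC20 (216, 207 and 198 CPM), at 0.07, 0.03, 0.07 and 0.05. TOP2A (422, 446 and 437 CPM) and CENPF (222, 237 and 251 CPM) were at -0.09 and -0.08. TOP2A was called lower with library totals, without the filter, with the replicate block, with DESeq2, and without vehicle replicate 3 or Pinellia replicate 2 (adjusted p 0.025 to 0.046). CENPF was called lower without Pinellia replicate 3 (-0.13, adjusted p 0.02), and CDK1 with the exon length trend taken out (adjusted p 0.045). FOXM1 libraries were all above vehicle and those of CDK1 and TOP2A all below it, and the other 6 genes overlapped it.

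High-dose jujube raised 20 members by small amounts. CDC25C had 17.5, 18.3 and 17.6 CPM at the high dose, against 13.9, 15.1 and 13.9 CPM in vehicle (0.31 ± 0.06, adjusted p 0.00027). AURKB had 41.9, 40.8 and 40.2 CPM, against 32.2, 34.5 and 34.7 CPM in vehicle (0.28 ± 0.05, adjusted p 0.00012). CCNA2 had 86.1, 81.9 and 82.2 CPM, against 71.8, 68.2 and 66.2 CPM in vehicle (0.28 ± 0.04, adjusted p 4.3e-08). In each of the 3 every jujube library was above every vehicle library. Over all members this held for 29 of 39, against 16.7% of all genes; 1 member had every jujube library below vehicle, against 17.9%, and 9 overlapped it.

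AURKA had 111, 111 and 114 CPM with jujube (0.16, adjusted p 0.0013), TOP2A 519, 513 and 513 CPM (0.15, adjusted p 0.0012) and BUB3 151, 148 and 148 CPM (0.12, adjusted p 0.0038). CDK1 (85, 85.5 and 88.5 CPM) and CENPF (263, 271 and 263 CPM) were not called, at 0.10 and 0.08, but both were called higher with library totals (adjusted p 0.024 and 0.028) and with only the 2 groups fitted (adjusted p 0.018 and 0.032). CCNB1 was the member that stood lowest, with 170, 160 and 166 CPM (-0.11 ± 0.05, adjusted p 0.089). It was called lower without the filter on low counts (adjusted p 0.015) and with only the 2 groups fitted (adjusted p 0.0064), and had an adjusted p between 0.051 and 0.3 in the other alternatives. FOXM1 (157, 158 and 150 CPM), PLK1 (115, 115 and 116 CPM) and CDC20 (196, 203 and 195 CPM) were at -0.03, 0.01 and -0.01; that of PLK1 was below 0 without vehicle replicate 2 and that of CDC20 above 0 with library totals.

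Counted by group means alone, with no test, the mean was higher at each step from low to medium to high dose of jujube for 32 members, against 22.7% of all tested genes, and lower at each step for 1, against 23.6%. With Coptis it was lower at each step for 31, against 32.3%, and with Scutellaria for 28, against 25.6%. It was lower at each step for 16 with fresh ginger, against 24.1%, and for 12 with dried ginger, against 21.3%. With these 4 extracts no member was higher at each step, against 28.9% of all genes with Coptis, 24.5% with Scutellaria, 23.5% with fresh ginger and 21.9% with dried ginger. With Pinellia 23 were higher at each step, against 23.2%, and 3 lower, against 23.7%.

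Genes of neighbouring cell cycle functions were counted from lists that hold none of the 39. Of all tested genes, 19.2% were called lower and 17.3% higher with wortmannin, 28.5% lower and 30.3% higher with high-dose Scutellaria, 37.9% lower and 37.2% higher with high-dose Coptis, and 9.1% lower and 8.18% higher with high-dose jujube; 20.2% were lower with medium-dose Coptis, and each list's counts are to be read against these shares. Of 42 genes of DNA replication and S phase, all 42 fell with wortmannin (median -0.45), 39 fell with high-dose Scutellaria (-0.55), 35 fell and 2 rose with high-dose Coptis (-0.80) and 41 fell with medium-dose Coptis (-0.52). The replication licensing helicase subunit MCM3 fell by 1.83 ± 0.03 with high-dose Coptis. With high-dose jujube 6 replication genes rose and 1 fell (median 0.04), against 20 and 0 of the 39 members (median 0.12); the difference between the lists was not tested. Of 20 kinesin and spindle genes, 19 fell with wortmannin (-0.31), 19 with Scutellaria (-0.64) and 17 with high-dose Coptis (-1.16), where 3 rose, and 12 rose with jujube (0.13). KIF20A, the motor of the central spindle, fell by 3.09 with Coptis and 1.58 with Scutellaria, and MKI67, the antigen of the Ki-67 proliferation stain, by 2.24 and 1.24.

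Of 33 other kinetochore genes, 31 fell with wortmannin, 28 with Scutellaria and 28 with high-dose Coptis. KNL1, the scaffold that recruits checkpoint proteins, fell by 2.24 with Coptis and 0.87 with Scutellaria. Of 23 condensin and cohesin genes, 16, 15 and 14 fell and 2, 4 and 9 rose, the last a share close to that of all genes. STAG2, a cohesin subunit, rose by 1.02 ± 0.03 with Coptis, while NCAPG, a condensin subunit, fell by 1.96 ± 0.05. Of 18 genes of the anaphase-promoting complex and separase, 11, 11 and 6 fell and 1, 1 and 8 rose, so that with Coptis both counts were near the share of all genes. FBXO5, the inhibitor of that complex in interphase, fell by 0.51 with wortmannin, 0.78 with Scutellaria and 1.45 with Coptis.

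Of 17 other genes of mitotic entry, 11 fell in each of the 3 treatments and 2, 3 and 4 rose. WEE1, the kinase that holds CDK1 inactive, rose by 1.21 ± 0.05 with Coptis (adjusted p 8.9e-28). Of 8 tested G1 cyclins and kinases, 6, 6 and 7 fell and 1 rose in each; CCNE2, a cyclin of the G1 to S transition, fell by 3.18 with Coptis and 1.61 with Scutellaria. Of 22 E2F, MuvB and pocket protein genes, 10, 12 and 10 fell and 4, 6 and 11 rose. MYBL2 (B-MYB) fell by 1.03 ± 0.06 with wortmannin. E2F7, a repressor E2F, rose by 1.87 ± 0.04 with Scutellaria and 1.65 ± 0.04 with Coptis, the highest of the list in each. E2F2 was the lowest of the list in each, at -1.65 and -3.8. E2F8 was the lowest for high against low dose of Scutellaria, at -1.61.

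Inhibitors of the cycle and p53 checkpoint genes went the other way with both extracts. Of 16 tested, 14 rose and 1 fell with high-dose Coptis (median 1.33), 11 rose and 3 fell with high-dose Scutellaria (0.44), and 6 rose and 4 fell with wortmannin (0.06). GADD45A, a stress-induced gene, rose by 3.40 ± 0.05 with Coptis and 2.5 ± 0.05 with Scutellaria, and fell by 0.49 ± 0.06 with wortmannin. CDKN1A, the CDK inhibitor p21, rose by 1.69 ± 0.05 with Scutellaria and 0.37 ± 0.06 with wortmannin. CDKN2C, the CDK4 and CDK6 inhibitor p18, was an exception and fell by 3.20 with Coptis and 1.82 with Scutellaria.

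**Figure D5:**
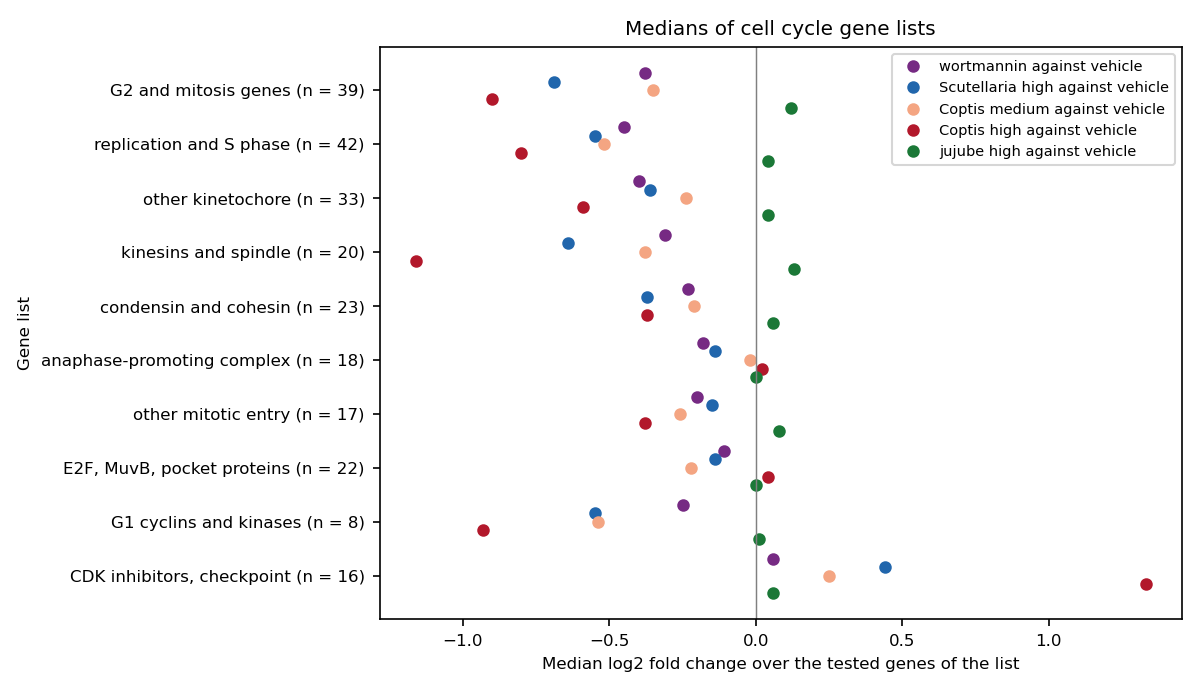
Median log2 fold change against vehicle (horizontal axis) of the G2 and mitosis genes and of 9 other cell cycle gene lists (rows), for wortmannin, high-dose Scutellaria, medium- and high-dose Coptis and high-dose jujube (coloured points). The G2 and mitosis, replication and kinesin rows lie left of 0 in 4 treatments, and the inhibitor row lies right of 0, furthest with high-dose Coptis at 1.33.

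Members with and without the CHR letters in their promoter windows had medians within each other's range, and the difference was not tested. Only TTTGAA and TTCGAA were counted as CHR letters, so members without them are not shown to lack a CHR. With high-dose Coptis the median log2 fold change was -0.92 over 26 members with the letters (-3.12 to 0.52) and -1.16 over 6 without them (-2.12 to -0.35). With high-dose Scutellaria the medians were -0.76 and -0.72, with wortmannin -0.36 and -0.38, and with high-dose jujube 0.12 and 0.08. CCNB2 and PLK1, printed above, hold the same CHR letters at the same distance from the start, while their CCAAT letters differ in number and position. These 2 genes fell by 0.78 and 0.32 with Coptis, and by 0.65 and 1.02 with Scutellaria. CDC20, SPC25 and ASPM, which also hold both motifs, had Coptis changes of 0.04, -3.12 and -2.88. A match of letters is a description of the window and not a bound site.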

How the data were processed

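Per the submitters' processing notes, GRCh38 was the build, and RSEM 1.3.3, STAR 2.7.3a, Trim Galore 0.6.5 and FastQC 0.11.9 were used. No annotation release, strandedness in counting or program option was given by the sources used here. Per the labels, the libraries were directional and read as 100 bp pairs. The deposited file holds the authors' RSEM expected counts per gene; 90.5% of values were whole, and all were rounded to whole numbers. Genes passing filterByExpr (17569) were fitted in R 4.3.3 with edgeR 4.0.16 (limma 3.58.1), TMM factors, 1 mean for each of 20 groups and 40 residual degrees of freedom; the biological coefficient of variation was 3.2%. Comparisons were tested by edgeR's quasi-likelihood test, two-sided, with Benjamini-Hochberg adjustment over all tested genes; DESeq2 1.42.0 was an alternative. The vehicle carries another code number in the labels than wortmannin and the extracts, so that code cannot be told apart from treatment. High and low dose of an extract share a code, and wortmannin, given at a single dose, has no such comparison. The replicate numbers did not pair libraries: in none of the comparisons was every pair's correlation over 0.1.

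Members, lists and tests were chosen with earlier results of these data known. Values in every library are given for CCNB1, CDK1, CCNA2, FOXM1, PLK1, AURKA, CDC20, TOP2A, CENPF and BUB3. With wortmannin and each high dose they are also given for the 3 called members with the largest change. Other list genes named are among the 4 called with the smallest p, or were named as the lowest of their list (E2F2 and E2F8). High against medium dose of Scutellaria and Coptis was added after the data were seen. Gene positions are those of GENCODE release 29, and promoter windows those of RefSeq. Standard errors and intervals cover the spread between libraries.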

Additional observations from a re-analysis of the deposited data

Results flagged for a closer look

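BIRC5, which encodes survivin, was called for a difference between the 2 gingers in its response to dose, a call that most leave-one-out fits lost. Its log2 difference between high and low dose was -0.02 in dried ginger and -0.24 in fresh ginger. The dried response minus the fresh response was 0.22 (SE 0.06, edgeR's quasi-likelihood test of the interaction, p 0.00023, adjusted p 0.035). The libraries had 124, 124 and 117 CPM at the high dose of dried ginger, against 123, 122 and 126 CPM at its low dose. They had 112, 116 and 122 CPM at the high dose of fresh ginger, against 143, 130 and 142 CPM at its low dose, so that the low dose of fresh ginger stood above the other 3 groups. It was the 1 member of 39 called in this test, where 143 of all 17569 tested genes were called. The call was lost in 9 of the 12 fits that leave out 1 library of these groups.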

How the results depend on the processing

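With RLE size factors, members called higher for high against low dose of Coptis were 5 (3 with TMM), and the 1 called lower for dried against fresh ginger at the low dose became 0; it was also 0 with library totals, with only the 2 groups fitted, and after taking out the exon length trend. With library totals, 9 were lower at low-dose fresh ginger (5), 2 lower at high-dose Pinellia (1), 1 higher at high-dose Coptis (3), 3 lower for high against low dose of dried ginger (5), 1 higher for high against low dose of Coptis (3) and 3 higher for its high against medium dose (5). Medians became -1.222 at high-dose Coptis (-0.90), -0.484 at its medium dose (-0.35), -1.15 for its high against low dose (-0.84), -0.696 for its high against medium dose (-0.52), -0.014 for high against low dose of fresh ginger (-0.04) and 0.179 for jujube (0.16). Signs turned for FOXM1 (-0.203), CDC20 (-0.275) and BUB3 (-0.248) at high-dose Coptis, CDC20 at high-dose jujube (0.017) and CCNA2 at high-dose fresh ginger (0.001).

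Without the filter on low counts, 2 were higher at low-dose fresh ginger (1), 1 lower at medium-dose Scutellaria (3) and 1 called at low-dose Scutellaria (0). Counts not rounded, DESeq2 and the exon length trend taken out each gave 2 lower at high-dose Pinellia (1); the last put CDC20 at high-dose Coptis at -0.001. DESeq2 also gave 2 lower at low-dose Coptis (1) and 5 higher for high against low dose of Coptis (3). Fitted on only the 2 groups, 2 were higher at low-dose fresh ginger (1), 0 lower and 3 higher at high-dose Pinellia (1 and 5), and 0 higher at its medium dose (1). The ginger interaction, which needs 4 groups, was not run this way.

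With the replicate number as a block, 2 were lower at high-dose Pinellia (1), 38 lower at high-dose Scutellaria (37), where BUB3 came under the threshold, and 14 higher for high against low dose of Pinellia (13); the other counts were the same, and medians moved by less than the spread between replicates. Libraries with the same number correlated at 0 on average, as did those with other numbers, and 26 of 60 correlated best with their own number, so the numbers were not taken as pairing.

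Leaving out 1 library at a time gave 2 to 5 lower and 0 to 1 higher at low-dose fresh ginger, 8 to 12 lower at high-dose dried ginger, 0 to 2 lower at high-dose Pinellia, 0 to 4 lower at medium-dose Scutellaria, 0 to 1 lower at low-dose Coptis and 2 to 5 higher at high-dose Coptis, both against vehicle and against its low dose. It gave 0 to 1 for the ginger interaction and for dried against fresh ginger at the low dose, and 2 to 5 lower for high against low dose of dried ginger. At high-dose jujube it gave 16 to 18 higher (20 with all libraries), and at high-dose fresh ginger 15 to 19 lower (20). For high against low dose it gave 24 to 25 higher with jujube (28) and 9 to 12 higher with Pinellia (13). Medians ran from -0.067 to -0.033 for high against low dose of fresh ginger and from -0.701 to -0.642 for Scutellaria. Signs turned for CCNA2 at high-dose fresh ginger (range -0.036 to 0.022, with 0.016 without fresh ginger replicate 3), for CDC20 (-0.027 to 0.003) and PLK1 (-0.006 to 0.04) at high-dose jujube, and for CDC20 at high-dose Coptis (-0.008 without its replicate 2, 0.084 without its replicate 3). Causes were not tested. Of the counts and medians recomputed, 868 stayed close to the reported ones (counts within 1.5 times, medians within the spread between replicates) and 64 moved. SPC25 was near 1 CPM at high-dose Coptis, where depth limits its precision.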
